A study of Rattus norvegicus with 60 samples.

Results

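The genes described here encode the nuclear subunits of the 4 respiratory chain complexes and of ATP synthase, together with the assembly factors and the inhibitor protein that share their symbols, in rat liver. A probe set of the array was taken where it was annotated to exactly 1 symbol beginning with Ndufa, Ndufb, Ndufc, Ndufs, Ndufv, Sdha, Sdhb, Sdhc, Sdhd, Uqcr, Cox4, Cox5, Cox6, Cox7, Cox8 or Atp5. This gave 101 probe sets for 90 of the 14217 genes with such a probe set. For the 10 genes with more than 1, the probe set with the highest mean over all 60 arrays stood for the gene. By complex there were 42 genes of complex I, 8 of complex II, 7 of complex III, 17 of complex IV and 16 of ATP synthase (complex V). Without the 10 assembly factors and the inhibitor, 79 genes remained.

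Male F344/N rats, 5 to 6 weeks old when dosing began, received N,N-dimethyl-p-toluidine (DMPT) or p-toluidine by gavage in corn oil at 2.5 ml/kg on 5 consecutive days, and total RNA of the left lateral liver lobe was hybridised to Affymetrix arrays. p-Toluidine is the same aromatic amine without the methyl groups that DMPT carries on its nitrogen. Each chemical had a vehicle group of its own (corn oil alone) and groups at 1, 6, 20, 60 and 120 mg/kg per day, with 5 arrays in each of the 12 groups. The labels do not tie a replicate number to an animal, so a p-value here reflects only how far these samples scatter, which may be technical. The tissue was bulk liver, in which fewer cells of a type and less RNA per cell cannot be told apart.

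The respiratory chain sits in the inner mitochondrial membrane. Complex I takes electrons from NADH and complex II from succinate, complex III passes them to cytochrome c and complex IV to oxygen, and ATP synthase uses the proton gradient built by complexes I, III and IV to make ATP. Most subunits are encoded in the nucleus and imported, and a smaller set is encoded in the mitochondrial genome. In the liver this machinery supplies ATP for gluconeogenesis, urea synthesis and the handling of foreign compounds.

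Values were log2 expression values, so a difference of 1 is a doubling. Array medians lay between 3.54 and 3.62 in the DMPT arrays and between 2.73 and 2.81 in the p-toluidine arrays, and levels were therefore read within a chemical only. In 5 DMPT arrays (replicate 3 at 6 mg/kg, replicates 3 and 5 at 60 mg/kg, replicates 2 and 5 at 120 mg/kg) the interquartile range of all values was 3.01 to 3.15, against 3.23 to 3.43 in the other DMPT arrays. None of these 5 narrow arrays was a vehicle array. Counts of called respiratory genes at 20, 60 and 120 mg/kg of DMPT are given with and without them, and those of other gene lists only in part. The difference between the 3' and 5' probe sets of beta-actin, which depends on RNA integrity, was 1.483 ± 0.148 (SD, n = 5) in the DMPT vehicle group and 1.28 ± 0.081 at 120 mg/kg (two-sided exact permutation test, p = 0.0159, adjusted p = 0.238 over 20 tests). In the p-toluidine arrays it was 1.802 ± 0.147 and 1.515 ± 0.085 (exact permutation p = 0.0238, adjusted p = 0.238). The defining hepatocyte markers were high in every group, with a log2 summed level of 15.50 to 15.56 over 7 markers in the DMPT vehicle group.

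At the top dose of either chemical a minority of the respiratory genes changed and most changes were small. A gene was called higher or lower where the limma adjusted p, taken over all 31042 probe sets tested, was at most 0.05. After 120 mg/kg of DMPT, 17 of the 90 genes were called (18.9%), 15 lower and 2 higher, against 9.8% of all probe sets (5.53% lower and 4.27% higher). The top dose of p-toluidine also gave 17 called genes (18.9%), 12 lower and 5 higher, against 10.7% of all probe sets (5.07% lower and 5.68% higher). Of the 90 genes 83 had a mean above the median of all probe sets, and calls were more frequent among such bright probe sets. With only the probe sets above the median level tested, 26 of 83 genes were called at 120 mg/kg of DMPT (31.3%) against 19.9% of all such probe sets, and 22 of 83 (26.5%) against 22.5% at 120 mg/kg of p-toluidine. The share of called genes at the top dose of p-toluidine was then near that of bright probe sets in general.

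The count of called genes rose from the lower doses to the higher ones. After DMPT no gene was called at 1 mg/kg (0% of all probe sets were called) or at 6 mg/kg (0.168%), 3 at 20 mg/kg (Ndufv3, Ndufa7 and Cox5a, against 2.61% of all probe sets, 1.05% lower and 1.56% higher) and 12 at 60 mg/kg (10 lower and 2 higher, against 5.2%, 3.26% lower and 1.93% higher). After p-toluidine no gene was called at 1 mg/kg (0% of all), 6 mg/kg (0%) or 20 mg/kg (0.786%), and 5 were called at 60 mg/kg (Atp5if1, Ndufv3, Atp5f1e, Atp5f1c and Ndufaf4, 3 lower and 2 higher, against 4.51%, 2.39% lower and 2.12% higher). At an unadjusted p under 0.05, 1643 probe sets passed at 1 mg/kg of DMPT, 1992 at 1 mg/kg of p-toluidine and 2557 at 6 mg/kg of p-toluidine. The doses of a chemical share one vehicle group, so agreement between doses is not independent. Without the 5 narrow arrays the counts after DMPT were 6 at 60 mg/kg and 10 at 120 mg/kg, of which 3 and 7 were lower. A fit of only the 10 arrays compared called 10 genes at 120 mg/kg of DMPT and 4 at 120 mg/kg of p-toluidine. Leaving out 1 array at a time gave 10 to 15 called genes at 120 mg/kg of DMPT, with 10 without vehicle replicate 2, 10 without replicate 5 at the top dose, and 11 without vehicle replicate 1 or 4 or without replicate 1 or 2 at the top dose. At 120 mg/kg of p-toluidine the range was 9 to 16, with 10 without vehicle replicate 4 and 9 without replicate 1 at the top dose. With the beta-actin difference in the model, 15 of the 17 genes called after DMPT and 9 of the 17 called after p-toluidine were still called. Apart from bright probe sets, the share of all probe sets called in such alternative fits is not given here or below. Counts from these fits therefore stand without a background share.

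**Figure D1:**
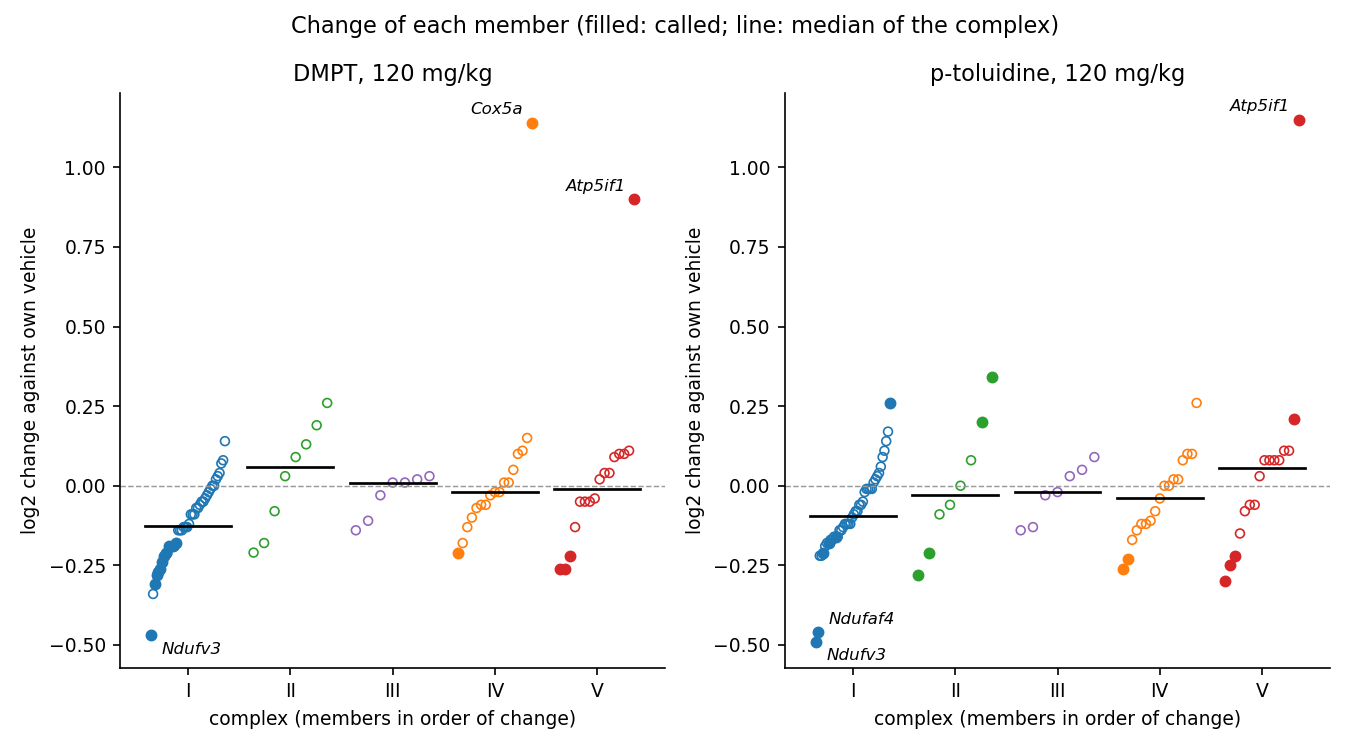
The log2 change of each gene at 120 mg/kg against its own vehicle group (vertical axis), arranged by complex (horizontal axis), for DMPT and for p-toluidine. Filled points are called genes, open points are not called, and the line is the median of the complex. Most points of complex I lie below 0 in both panels, Atp5if1 lies above the other genes of complex V in both, and Cox5a lies highest in the DMPT panel.

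Most complex I genes lay below their vehicle mean at the top dose of both chemicals. At 120 mg/kg of DMPT, 36 of 42 were below 0 with a median change of -0.125 log2, and at 120 mg/kg of p-toluidine 32 of 42 were below 0 with a median of -0.096. At 1, 6, 20 and 60 mg/kg of DMPT 34, 28, 32 and 34 were below 0, with medians of -0.042, -0.036, -0.068 and -0.138. At 1 mg/kg of p-toluidine 22 were below 0 (median -0.004). No probe set was called at 1 mg/kg of DMPT, and all its doses share 1 vehicle group. The number below 0 is therefore not by itself a measure of a dose effect. The 48 genes of complexes II to V were divided evenly at 120 mg/kg of DMPT, 24 above and 24 below 0, with a median of -0.006. Complex II had a median change of 0.058 at 120 mg/kg of DMPT and -0.033 at 120 mg/kg of p-toluidine, and complex III 0.006 and -0.018. Complex IV had -0.019 and -0.043, and complex V -0.012 and 0.053. Over all probe sets the median change lay between -0.014 and 0.006 in the 10 dose groups. These medians are descriptions of the lists, and no test was made over the genes of a complex.

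In single arrays the median of the complex I genes, taken relative to the vehicle mean, ran from -0.030 to 0.030 in the 5 DMPT vehicle arrays. It was -0.083, -0.094, -0.105, -0.090 and -0.173 in the 5 arrays at 120 mg/kg and -0.082, -0.084, -0.247, -0.061 and -0.141 in those at 60 mg/kg. Neither of these dose groups overlapped the vehicle group. The lowest arrays, replicate 3 at 60 mg/kg and replicate 5 at 120 mg/kg, are both among the 5 narrow arrays. Without the narrow arrays the complex I median was -0.095 at 120 mg/kg of DMPT, and after cyclic loess it was -0.086. In the p-toluidine vehicle arrays the same median ran from -0.037 to 0.040, and at 120 mg/kg it was -0.127, -0.135, -0.107, -0.080 and 0.016. Replicate 5 at the top dose of p-toluidine lay within the vehicle range and the other 4 arrays lay below it. At 1 mg/kg, where no probe set was called, the median ran from -0.122 to -0.007 after DMPT and from -0.124 to 0.069 after p-toluidine. A single array at that dose was thus lower than most arrays at 120 mg/kg of the same chemical. The vehicle arrays are centred on their own mean, so lying below them is not by itself a measure of a dose effect.

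**Figure D2:**
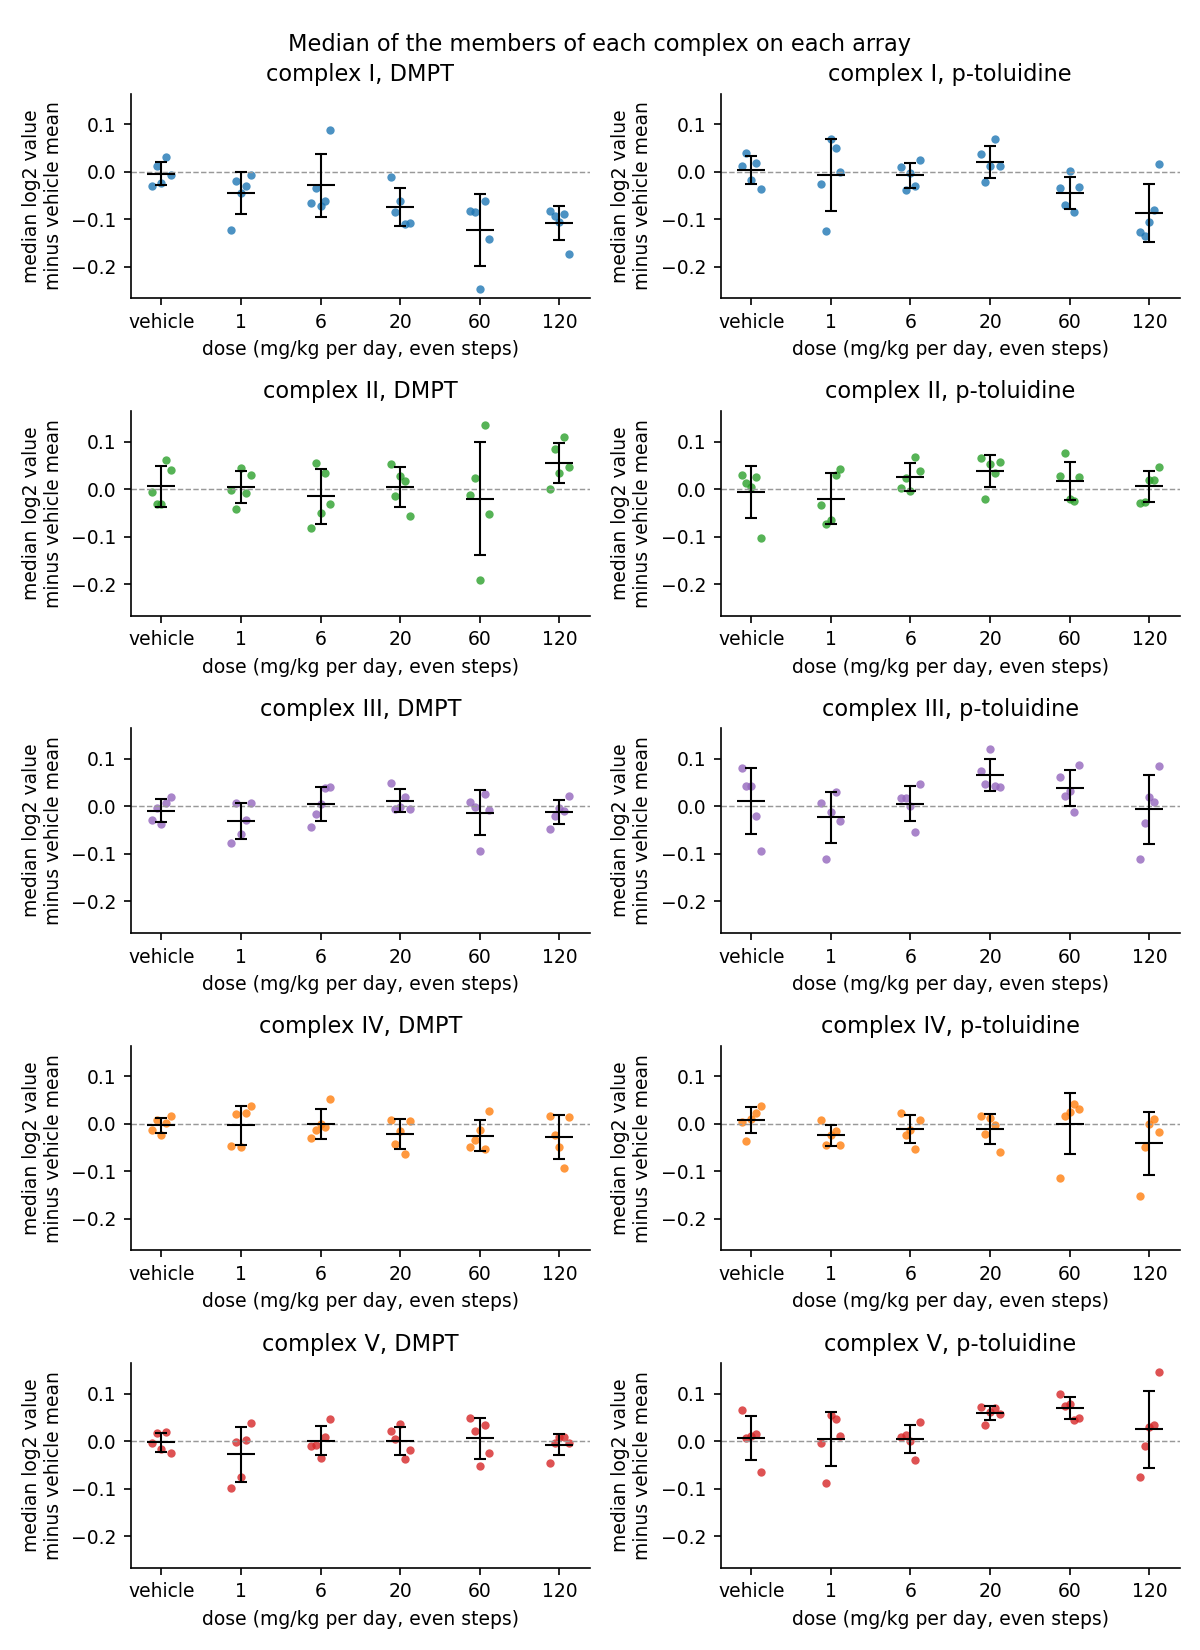
The median of the genes of each complex on each array, as log2 value minus the mean of the vehicle group (vertical axis), by dose in mg/kg per day (horizontal axis), with 1 row of panels per complex and 1 column per chemical. Each point is an array, and bars give the mean ± SD of a group. The complex I arrays at 60 and 120 mg/kg of DMPT lie below all 5 vehicle arrays, and those of complex III at 120 mg/kg lie around the vehicle arrays.

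Complex I, the largest of the 5 complexes, held most of the called genes after DMPT when all arrays were used. Of its 42 genes, 11 fell at 120 mg/kg of DMPT (26.2%) and none rose, against 5.53% of all probe sets called lower and 4.27% called higher. With only bright probe sets tested, 19.9% of them were called at 120 mg/kg of DMPT, in either direction. The share of complex V called at that dose was similar, 4 of 16 genes (25%, 3 lower and 1 higher). At 60 mg/kg 8 complex I genes fell (19%, against 3.26% of all probe sets called lower) and at 20 mg/kg 2 fell. At 120 mg/kg of p-toluidine 5 of the 42 complex I genes fell and 1 rose, against 5.07% of all probe sets called lower and 5.68% called higher. With only bright probe sets tested, 22.5% of them were called at that dose, in either direction. By role, 9 of the 29 accessory subunits fell at 120 mg/kg of DMPT, 1 of the 6 core subunits and 1 of the complex I assembly factors. After 120 mg/kg of p-toluidine 4 of the 29 accessory subunits fell and none of the 6 core subunits was called. The shares of all probe sets beside these counts by role are those given above. The complex I count at 120 mg/kg of DMPT was 4 without the narrow arrays, a minority of the genes called in that fit. It was 6 after cyclic loess, 6 after quantile normalization and 12 with the beta-actin 3' to 5' difference in the model. These counts stand without the share of all probe sets called in the same fits. The part of the narrow arrays and of RNA integrity in these counts was not tested beyond these values.

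Ndufv3, a small accessory subunit of the NADH-oxidising module, had the largest change among the complex I genes called at 120 mg/kg of either chemical. The assembly factor Ndufaf4 had a larger change at 60 mg/kg of both. In the 5 DMPT vehicle arrays the values of Ndufv3 were 9.08, 9.15, 8.94, 9.06 and 8.93. At 60 mg/kg they were 8.72, 8.51, 8.43, 8.65 and 8.64, and at 120 mg/kg 8.41, 8.62, 8.62, 8.57 and 8.57. All 5 arrays at each of these doses were below all 5 vehicle arrays. Ndufv3 fell by 27.9% at 120 mg/kg of DMPT (log2 change -0.47 ± 0.07, SE, adjusted p = 2.68e-05). It had already fallen at 20 mg/kg (log2 change -0.35). In the p-toluidine vehicle arrays the values were 8.45, 8.56, 8.40, 8.49 and 8.24, and at 120 mg/kg 7.84, 7.94, 7.86, 7.91 and 8.14. These groups did not overlap either, and Ndufv3 fell by 28.7% (log2 change -0.49 ± 0.07, adjusted p = 1.42e-05). The call held in each of the 10 fits that left out 1 array, for both chemicals, and after DMPT also without the narrow arrays (adjusted p = 0.000268).

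A second, dimmer probe set annotated to Ndufv3 was not called at 120 mg/kg of either chemical. Its log2 change was -0.16 ± 0.09 at 120 mg/kg of DMPT (adjusted p = 0.324) and 0.10 ± 0.07 at 120 mg/kg of p-toluidine (adjusted p = 0.444). In the DMPT arrays its values were 5.26 to 5.35 in the vehicle group and 5.09, 4.97, 5.19, 5.31 and 5.13 at 120 mg/kg, so 4 of 5 arrays lay below every vehicle array without a call. The called fall of Ndufv3 therefore rests on 1 of its probe sets, and which transcripts each probe set detects was not analysed here.

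Of the other complex I subunits that fell at 120 mg/kg of DMPT, Ndufa2, a thioredoxin-like subunit of the peripheral arm, was the next in size. Its values were 8.84, 8.89, 8.74, 8.85 and 8.66 in the vehicle arrays and 8.45, 8.47, 8.54, 8.50 and 8.46 at 120 mg/kg, with no overlap. Its log2 change was -0.31 ± 0.06 (adjusted p = 0.00102), and at 120 mg/kg of p-toluidine it was -0.19 (adjusted p = 0.0555). The remaining called genes, named after their values were seen, were Ndufs8 (log2 change -0.28), a core iron-sulfur subunit, and the accessory subunits Ndufb7 (-0.27), Ndufa7 (-0.26), Ndufb8 (-0.22), Ndufa11 (-0.21), Ndufb11 (-0.19), Ndufa1 (-0.19) and Ndufa6 (-0.18), with the assembly factor Ndufaf3 (-0.24). Ndufv3, Ndufa2, Ndufa7 and Ndufb7 kept their call in all 10 fits that left out 1 array, and of these Ndufb7 lost it without the narrow arrays (adjusted p = 0.0512). The other 7 each lost it in at least 4 of them, the highest adjusted p being 0.173 for Ndufa6. Ndufa7, Ndufb11 and Ndufa1 also fell at 120 mg/kg of p-toluidine, by 0.16, 0.21 and 0.18 on the log2 scale. Those p-toluidine calls were lost in 8, 2 and 6 of 10 fits (adjusted p up to 0.122 without vehicle replicate 4, 0.083 without replicate 1 and 0.122 without replicate 4 at the top dose). With the beta-actin difference in the model Ndufa7 and Ndufa1 were not called after p-toluidine (adjusted p = 0.0589 and 0.119).

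The other 5 core subunits, most of which carry the flavin or iron-sulfur centres, were not called at 120 mg/kg of either chemical. After 120 mg/kg of DMPT the log2 changes were 0.08 for Ndufs1, -0.06 for Ndufs3, -0.00 for Ndufs7, -0.14 for Ndufv1 and -0.14 for Ndufv2. Ndufs1, which holds iron-sulfur centres of the NADH module, had a log2 change of 0.17 at 120 mg/kg of p-toluidine (adjusted p = 0.0827). Its slope over the 6 dose ranks of p-toluidine passed the test (0.043 log2 per dose step, adjusted p = 0.00658). Ndufa4, named for complex I but now known as a subunit of complex IV, had log2 changes of -0.04 and -0.01 at the top doses of DMPT and p-toluidine.

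The assembly factors moved in both directions. Ndufaf4, which acts with Ndufaf3 early in complex I assembly, had values of 5.80, 5.82, 5.96, 6.35 and 5.85 in the p-toluidine vehicle arrays and 5.63, 5.16, 5.42, 5.67 and 5.58 at 120 mg/kg. The groups did not overlap, and Ndufaf4 fell by 0.46 ± 0.12 on the log2 scale (adjusted p = 0.0077). The call was lost with the beta-actin difference in the model (adjusted p = 0.0825). After DMPT its values were 6.62, 6.15, 6.55, 6.40 and 6.53 in the vehicle arrays, 5.90, 6.06, 5.92, 6.19 and 5.64 at 60 mg/kg and 6.03, 6.10, 6.21, 6.32 and 5.91 at 120 mg/kg. At both doses some arrays lay above the lowest vehicle array. Ndufaf4 fell at 60 mg/kg of DMPT (log2 change -0.51 ± 0.12, a call lost without the narrow arrays, adjusted p = 0.108) and did not pass at 120 mg/kg (log2 change -0.34 ± 0.12, adjusted p = 0.0857). Ndufaf5, which hydroxylates a core subunit during assembly, rose at 120 mg/kg of p-toluidine (log2 change 0.26 ± 0.08, adjusted p = 0.0266). That call was lost in 4 of 10 fits (adjusted p = 0.101 without vehicle replicate 5). After DMPT its log2 change was 0.14.

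The promoters of Ndufv3 and Ndufaf4, the complex I genes with the largest changes at 120 mg/kg of p-toluidine, both hold a match to the recognition sequence of NRF1, a transcription factor known for its sites in respiratory chain genes. The 250 bases before the annotated start are shown 5' to 3' in the direction of transcription, from the RefSeq annotation of the rat assembly GRCr8, with the NRF1 match in capitals. Ndufv3 lies at chr20:9613536-9613785 on the plus strand with its match on the opposite strand at -39 to -30 from the start, and Ndufaf4 at chr5:43401545-43401794 on the plus strand with its match at -158 to -149.
Ndufv3: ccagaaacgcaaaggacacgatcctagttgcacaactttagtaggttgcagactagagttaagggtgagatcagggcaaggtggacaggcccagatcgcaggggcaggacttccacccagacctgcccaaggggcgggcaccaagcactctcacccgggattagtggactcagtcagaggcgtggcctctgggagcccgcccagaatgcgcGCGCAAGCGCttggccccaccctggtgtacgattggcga
Ndufaf4: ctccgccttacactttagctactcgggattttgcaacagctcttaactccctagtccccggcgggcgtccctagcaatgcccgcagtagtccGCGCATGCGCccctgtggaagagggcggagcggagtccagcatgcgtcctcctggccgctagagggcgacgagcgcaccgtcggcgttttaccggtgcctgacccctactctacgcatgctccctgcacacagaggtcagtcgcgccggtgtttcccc
The letters searched on both strands were GCGC followed by any 1 base and TGCGC for NRF1, CCGGAAG for the ETS factor GABPA, AAGATGGCG for YY1, TCAAGGTCA for ERRA and TGACNNNGC for the core of the NRF2 response element. RefSeq promoters were matched for 82 of the 90 genes. The NRF1 letters were in 13 of the 82 (15.9%) and in 4.17% of all 27457 promoters in the table. The GABPA letters were in 24 (29.3%) against 7.74%, those of YY1 in 1 (1.22%) against 0.736%, those of ERRA in 1 (1.22%) against 0.368% and those of the NRF2 core in 10 (12.2%) against 10.2%. A match is a description of letters and not evidence of binding. Apart from Ndufv3 and Ndufaf4, the NRF1 letters were in the promoters of Atp5me, Atp5mpl, Atp5po, Ndufa11, Ndufa12, Ndufa5, Ndufaf5, Ndufs6, Sdha, Sdhaf3 and Uqcrc1, which include called and uncalled genes and Ndufaf5, which rose at 120 mg/kg of p-toluidine.

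Complex II, succinate dehydrogenase, links the tricarboxylic acid cycle to the chain. None of its 8 genes was called at any dose of DMPT, and 4 were called at 120 mg/kg of p-toluidine, 2 higher and 2 lower, where 10.7% of all probe sets were called. The catalytic subunits had values close to vehicle: at 120 mg/kg of DMPT the log2 change of Sdha, the flavoprotein, was 0.09 ± 0.07 (adjusted p = 0.49) and that of Sdhb, the iron-sulfur protein, -0.08 ± 0.05 (adjusted p = 0.405). After 120 mg/kg of p-toluidine they were -0.00 and -0.06.

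Sdhc, a membrane anchor that binds haem and ubiquinone, had p-toluidine vehicle values of 9.10, 9.27, 8.96, 9.19 and 9.21 and values of 9.30, 9.33, 9.34, 9.34 and 9.42 at 120 mg/kg. The groups did not overlap, and Sdhc rose by 14.9% (log2 change 0.20 ± 0.06, adjusted p = 0.0366). The call was lost in 6 of 10 fits (adjusted p = 0.136 without vehicle replicate 3). After DMPT the vehicle values were 9.42, 9.54, 9.49, 9.68 and 9.67 and those at 120 mg/kg 9.69, 9.75, 9.72, 9.81 and 9.79, again without overlap, and the log2 change of 0.19 ± 0.07 did not pass (adjusted p = 0.0641). Over all doses the slope of Sdhc passed the test for both chemicals, at 0.036 log2 per dose step (adjusted p = 0.0217 for DMPT and 0.0168 for p-toluidine). Sdhd, the other anchor, had a slope of 0.033 after DMPT (adjusted p = 0.00479) and log2 changes at 120 mg/kg of 0.13 ± 0.05 after DMPT (adjusted p = 0.0989) and 0.08 after p-toluidine (adjusted p = 0.407).

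The assembly factors of complex II were called after p-toluidine in opposite directions. Sdhaf4, which helps join Sdha to Sdhb, had vehicle values of 5.59, 5.61, 5.47, 5.33 and 5.13 and values of 6.06, 5.59, 5.57, 5.69 and 5.89 at 120 mg/kg. Replicates 2 and 3 at the top dose lay within the vehicle range, and Sdhaf4 rose by 0.34 ± 0.10 on the log2 scale (adjusted p = 0.0239). The call was lost in 4 of 10 fits (adjusted p = 0.102 without replicate 1 at the top dose). Sdhaf2, needed to attach flavin to Sdha, fell (log2 change -0.28 ± 0.08, adjusted p = 0.0157), as did Sdhaf1, which serves the iron-sulfur protein (log2 change -0.21 ± 0.07, adjusted p = 0.0417). Sdhaf2 lost its call in 2 of 10 fits that left out 1 array (adjusted p up to 0.0647, without replicate 3 at the top dose). Sdhaf1 lost it in 6 (up to 0.134, without replicate 2 at the top dose) and after cyclic loess (adjusted p = 0.0799). With the beta-actin difference in the model none of Sdhc, Sdhaf4, Sdhaf2 and Sdhaf1 was called (adjusted p = 0.277, 0.0645, 0.135 and 0.113). After 120 mg/kg of DMPT the log2 changes were 0.26 for Sdhaf4, -0.18 for Sdhaf2 and -0.21 for Sdhaf1, and none passed (adjusted p = 0.0521, 0.109 and 0.0682).

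Complex III genes were not called in any dose group of either chemical. With 120 mg/kg of DMPT the largest change was that of Uqcrq, a small ubiquinone-binding subunit. Its values were 10.99, 10.97, 11.01, 10.97 and 10.91 in the vehicle arrays and 10.82, 10.83, 10.89, 10.85 and 10.75 at 120 mg/kg. The groups did not overlap, but the log2 change of -0.14 ± 0.05 did not pass (adjusted p = 0.0889), while its slope over the doses did (-0.026 log2 per dose step, adjusted p = 0.0283). The catalytic Rieske protein Uqcrfs1 and the core protein Uqcrc1 had log2 changes of 0.03 and 0.02 at 120 mg/kg of DMPT and of 0.05 and 0.09 at 120 mg/kg of p-toluidine. The hinge protein Uqcrh had 0.01 and -0.14, and the small subunit Uqcr11 -0.11 and -0.03. Cyc1, the cytochrome c1 of this complex, whose symbol lies outside the rule, fell at 120 mg/kg of DMPT (log2 change -0.21 ± 0.07, adjusted p = 0.0316) and had a log2 change of -0.11 at 120 mg/kg of p-toluidine (adjusted p = 0.336).

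Complex IV, cytochrome c oxidase, had 17 genes here. The isoforms of heart, muscle, testis, lung or other tissues were Cox4i2, Cox6a2, Cox6b2, Cox7a1, Cox7b2, Cox8b and Ndufa4l2. By its symbol Ndufa4l2 was counted in complex I and not among these 17. The 7 isoforms had vehicle means of 1.51 to 2.97 in the DMPT arrays and 0.97 to 2.13 in the p-toluidine arrays. These means lay below the array medians, and none of the 7 was called at 120 mg/kg. Of the 10 subunits of the common enzyme, 2 were called at 120 mg/kg of each chemical. The liver forms Cox6a1 and Cox8a had log2 changes of -0.06 and -0.02 at 120 mg/kg of DMPT and -0.14 and -0.12 at 120 mg/kg of p-toluidine, none of which passed. Cox6b1 had -0.10 and -0.11, and Cox7a2l, which is known from supercomplexes of complexes III and IV, had 0.15 and 0.10, also uncalled.

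Cox4i1, the subunit through which ATP is known to regulate the enzyme, had DMPT vehicle values of 10.46, 10.50, 10.50, 10.49 and 10.51 and values of 10.20, 10.34, 10.23, 10.35 and 10.30 at 120 mg/kg. The groups did not overlap, and Cox4i1 fell by 13.5% (log2 change -0.21 ± 0.07, adjusted p = 0.0471). This call was lost in all 10 fits that left out 1 array, most clearly without replicate 1 at the top dose (adjusted p = 0.124). After p-toluidine the log2 change was 0.00 ± 0.06. Cox5b, a zinc-binding subunit, and Cox7c, a small membrane subunit, fell at 120 mg/kg of p-toluidine by 0.23 ± 0.06 and 0.26 ± 0.08 on the log2 scale (adjusted p = 0.0119 and 0.042). Cox5b lost its call without replicate 1 at the top dose (adjusted p = 0.0577), and Cox7c in 8 of 10 fits (adjusted p up to 0.139, without vehicle replicate 1) and with the beta-actin difference in the model (0.375). After 120 mg/kg of DMPT their log2 changes were -0.13 and -0.18, uncalled.

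Cox5a, a matrix-side subunit, had the largest change of all 90 genes after DMPT, and its probe sets did not agree. On the 1-symbol probe set the DMPT vehicle values were 4.91, 4.81, 5.05, 5.34 and 5.25, those at 20 mg/kg 5.88, 6.33, 6.07, 6.08 and 5.86, and those at 120 mg/kg 6.10, 6.47, 6.44, 6.18 and 5.84. The dose groups lay above every vehicle array, and the value rose 2.20-fold at 120 mg/kg (log2 change 1.14 ± 0.21, adjusted p = 0.000461). At 60 mg/kg the values were 4.82, 5.78, 5.94, 6.33 and 6.03, of which replicate 1 lay within the vehicle range, and that call was lost in 8 of 10 fits (adjusted p up to 0.136, without replicate 4 at 60 mg/kg). With 120 mg/kg of p-toluidine the log2 change was 0.26 ± 0.11 (adjusted p = 0.149). Another probe set, annotated to Cox5a and to a second locus and so outside the rule, had values of 10.25, 10.33, 10.35, 10.38 and 10.43 in the DMPT vehicle arrays and 10.36, 10.32, 10.43, 10.35 and 10.42 at 120 mg/kg. These groups overlapped almost fully, with a log2 change of 0.03 ± 0.06 after DMPT (adjusted p = 0.853) and -0.04 ± 0.05 after p-toluidine (adjusted p = 0.724). The rise after DMPT was thus seen on 1 of the Cox5a probe sets and not on the other. Cox6c-ps1, annotated as a pseudogene, had log2 changes of 0.11 and -0.17 at the top doses, uncalled.

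**Figure D3:**
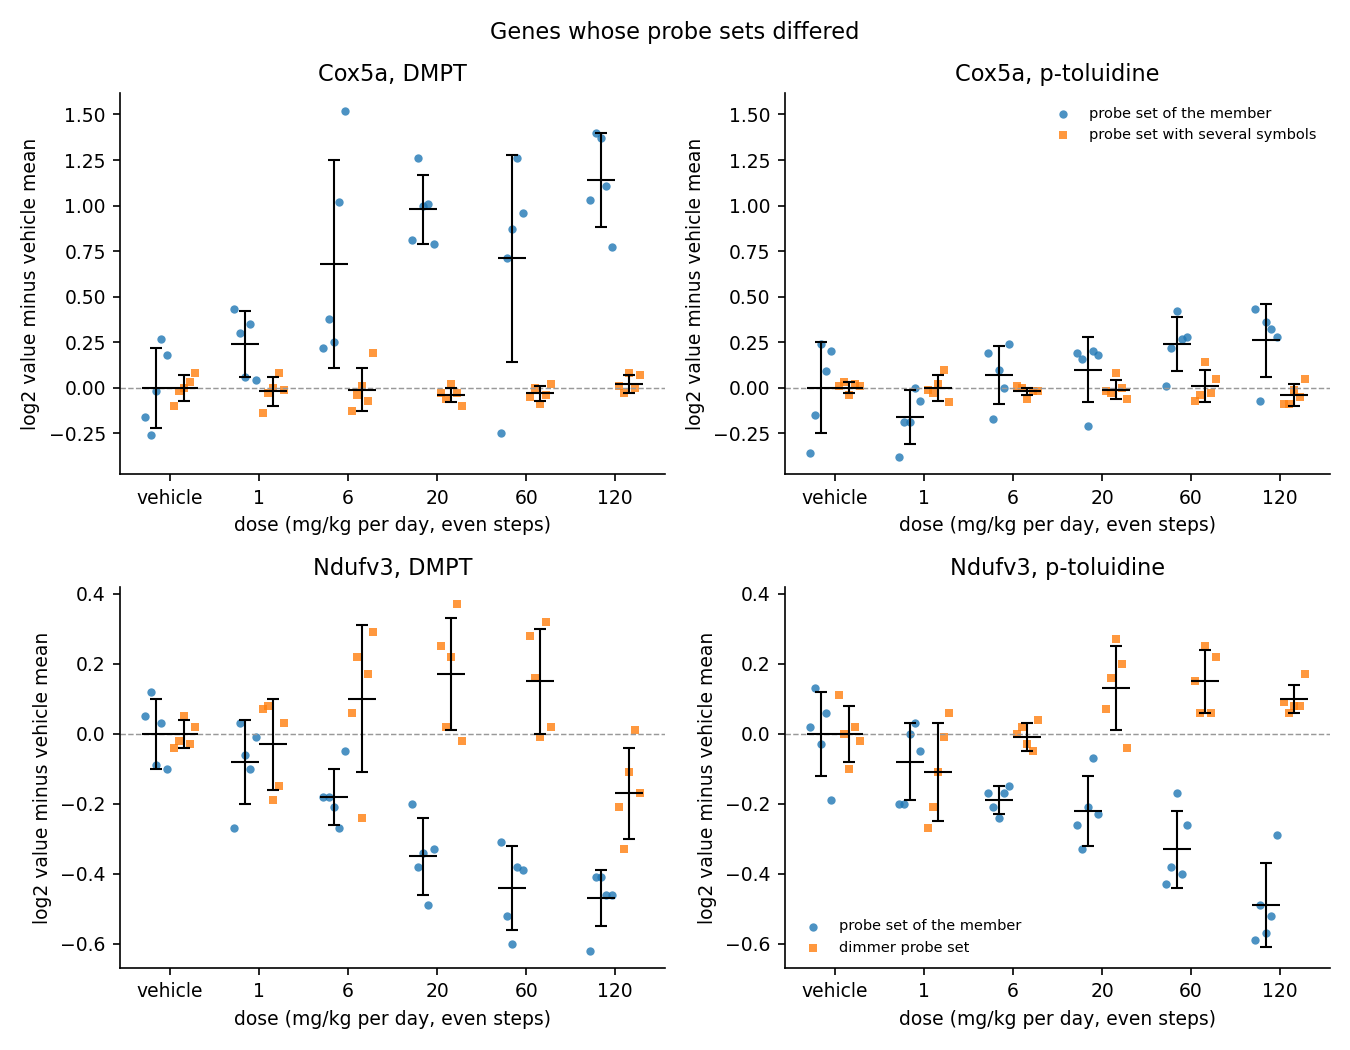
Probe sets of Cox5a and Ndufv3 on each array, as log2 value minus the vehicle mean (vertical axis), by dose in mg/kg per day (horizontal axis). Points are arrays and bars are the mean ± SD of 5 arrays. For Cox5a the 1-symbol probe set is set against the probe set annotated to several symbols, and for Ndufv3 the probe set used against the dimmer one. In the DMPT arrays the first Cox5a probe set rises while the other stays near 0, and the first Ndufv3 probe set falls while the mean of the dimmer one lies above its vehicle mean at 20 and 60 mg/kg and below it at 120 mg/kg.

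ATP synthase had the gene with the largest rise after both chemicals when Cox5a is set aside. Atp5if1 encodes the inhibitor protein that binds the enzyme at low matrix pH and stops it from hydrolysing ATP. In the DMPT vehicle arrays its values were 6.28, 6.47, 6.60, 6.67 and 6.69. They were 7.13, 7.05, 6.65, 7.07 and 7.02 at 60 mg/kg and 7.55, 7.54, 7.40, 7.55 and 7.17 at 120 mg/kg. At 60 mg/kg replicate 3 lay within the vehicle range, and at 120 mg/kg every array lay above it. Atp5if1 rose 1.87-fold at 120 mg/kg of DMPT (log2 change 0.90 ± 0.11, adjusted p = 5.92e-07) and by 0.45 ± 0.11 on the log2 scale at 60 mg/kg (adjusted p = 0.00909).

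After p-toluidine the Atp5if1 values were 5.75, 5.52, 5.66, 5.74 and 5.47 in the vehicle arrays, 6.48, 6.15, 6.09, 6.27 and 6.19 at 60 mg/kg and 6.84, 6.79, 6.64, 6.69 and 6.93 at 120 mg/kg. Both dose groups lay above all vehicle arrays, and at 20 mg/kg (5.83, 5.98, 6.02, 5.87 and 5.76) all 5 arrays also did. The gene rose 2.21-fold at 120 mg/kg (log2 change 1.15 ± 0.09, adjusted p = 1.79e-10) and by 0.61 ± 0.09 on the log2 scale at 60 mg/kg (adjusted p = 7.37e-05). The slope was 0.172 log2 per dose step after DMPT (adjusted p = 1.86e-07) and 0.210 after p-toluidine (adjusted p = 6.82e-09). The 2 dimmer probe sets of Atp5if1 rose as well, by 1.09 ± 0.19 and 0.54 ± 0.13 on the log2 scale at 120 mg/kg of DMPT (adjusted p = 0.000233 and 0.00484) and by 0.76 ± 0.12 and 0.36 ± 0.11 at 120 mg/kg of p-toluidine (adjusted p = 4.93e-05 and 0.0356). The call at 120 mg/kg held in all 10 fits that left out 1 array for both chemicals and without the narrow arrays (adjusted p = 1.64e-06).

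**Figure D4:**
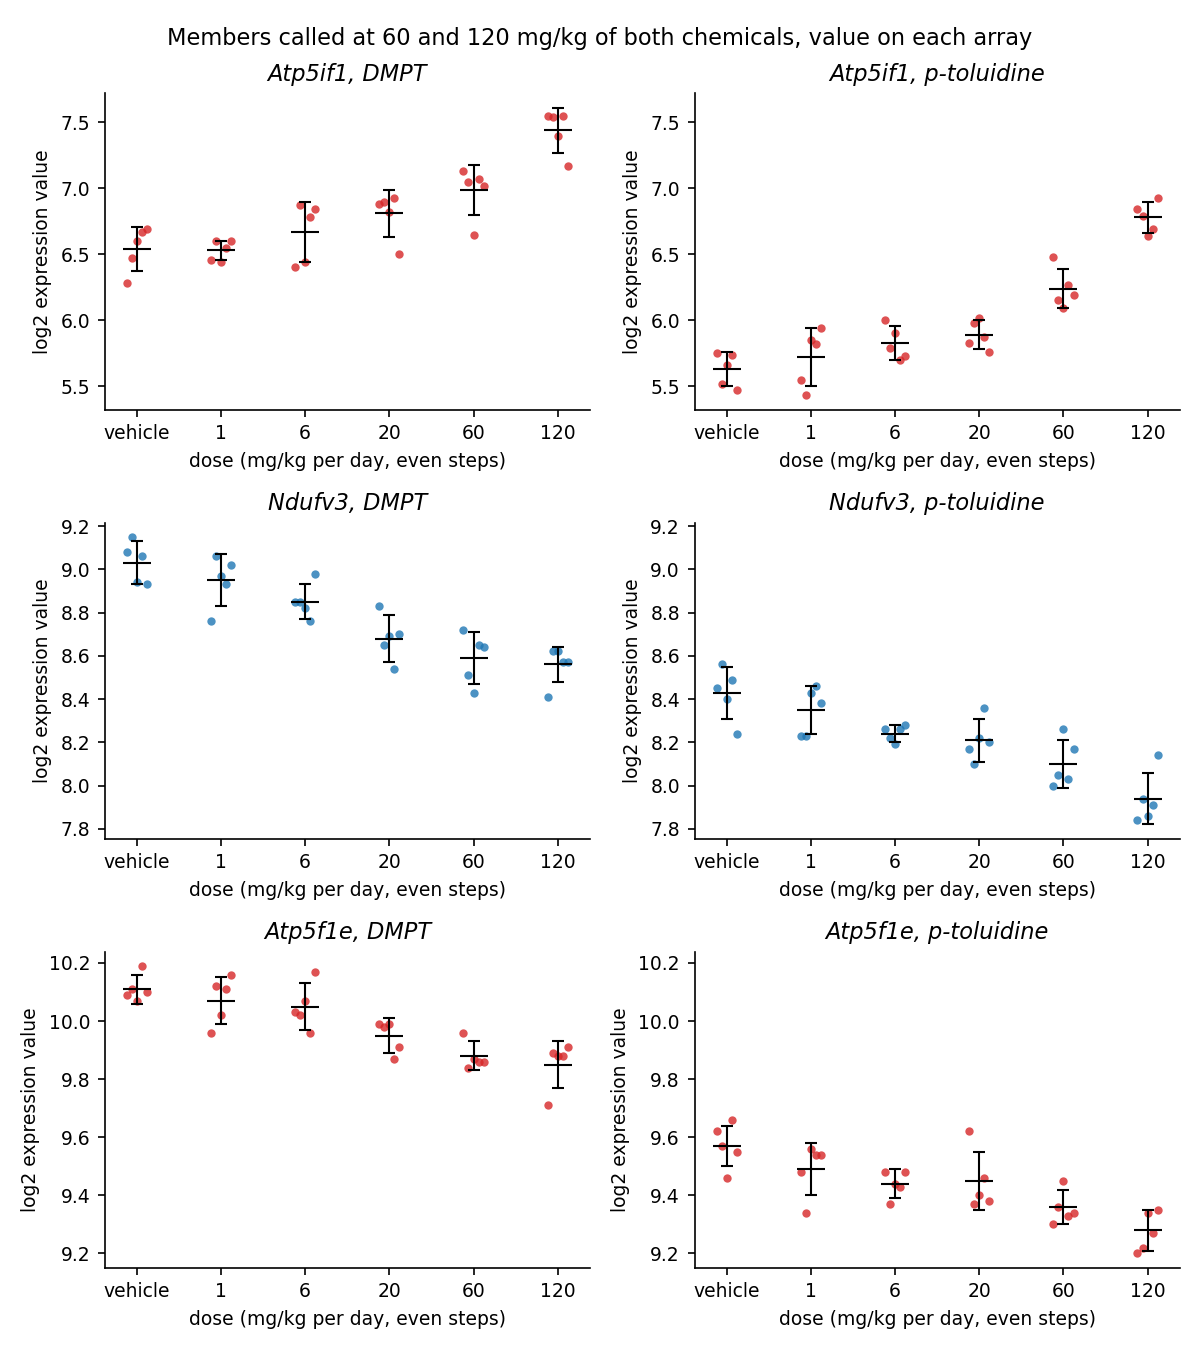
Log2 values of Atp5if1, Ndufv3 and Atp5f1e on each array (vertical axis) by dose in mg/kg per day (horizontal axis), with 1 column of panels per chemical. Points are arrays, and the bars give the mean ± SD of the 5 arrays of a group. Atp5if1 climbs with dose after both chemicals, to 7.17 to 7.55 at 120 mg/kg of DMPT from 6.28 to 6.69 in the vehicle group, while Ndufv3 and Atp5f1e decline.

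Among the subunits of the F1 head, which carries the catalytic sites and the rotor, Atp5f1e fell and Atp5f1c rose, and no other F1 gene was called in any dose group. Atp5f1e, the small epsilon subunit of the central stalk, had DMPT vehicle values of 10.09, 10.11, 10.07, 10.19 and 10.10, values of 9.96, 9.84, 9.87, 9.86 and 9.86 at 60 mg/kg and values of 9.71, 9.89, 9.88, 9.88 and 9.91 at 120 mg/kg. Neither dose group overlapped the vehicle group. It fell by 0.26 ± 0.06 on the log2 scale at 120 mg/kg of DMPT (adjusted p = 0.00267). After p-toluidine its values were 9.62, 9.57, 9.46, 9.66 and 9.55 in the vehicle arrays and 9.20, 9.22, 9.34, 9.27 and 9.35 at 120 mg/kg, without overlap, a fall of 0.30 ± 0.06 (adjusted p = 0.00083). Its call at 60 mg/kg of p-toluidine (log2 change -0.22) was lost in 6 of 10 fits (adjusted p at most 0.0934). The call at 60 mg/kg of DMPT held in all 10 fits that left out 1 array but was lost without the narrow arrays (adjusted p = 0.0535).

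Atp5f1c, the gamma subunit that forms the rotor shaft beside the epsilon subunit, had p-toluidine vehicle values of 10.03, 9.96, 9.96, 9.97 and 9.85, values of 10.16, 10.17, 10.26, 10.18 and 10.20 at 60 mg/kg and values of 10.18, 10.07, 10.16, 10.20 and 10.20 at 120 mg/kg. Both dose groups lay above the vehicle group. It rose by 0.24 ± 0.05 and 0.21 ± 0.05 on the log2 scale at these doses, the second with an adjusted p of 0.00564, and held its call in every fit that left out 1 array. With 120 mg/kg of DMPT the log2 change was 0.09 ± 0.05 (adjusted p = 0.325). The catalytic subunits Atp5f1a and Atp5f1b had log2 changes of 0.04 and -0.04 at 120 mg/kg of DMPT and -0.06 and -0.06 at 120 mg/kg of p-toluidine.

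In the membrane part, subunits g and e, known from the dimer interface of the enzyme, fell after both chemicals. Atp5mg had values of 10.21, 10.25, 10.16, 10.20 and 10.18 in the DMPT vehicle arrays and 9.88, 9.97, 9.93, 10.01 and 9.94 at 120 mg/kg, with no overlap and a fall of 0.26 ± 0.06 on the log2 scale (adjusted p = 0.00501). With 120 mg/kg of p-toluidine it fell by 0.25 ± 0.06 (adjusted p = 0.00513), also with no overlap between 9.60 to 9.75 in the vehicle arrays and 9.25 to 9.58 at the dose. Atp5me, named after its values were seen, fell by 0.22 ± 0.06 after each chemical (adjusted p = 0.015 for DMPT and 0.00938 for p-toluidine), and after DMPT its call was lost without vehicle replicate 2 (adjusted p = 0.0514). Its second probe set had log2 changes of 0.19 (adjusted p = 0.373) and -0.25 (adjusted p = 0.0668). Atp5mc3, which encodes the c subunit of the proton-driven ring, had 0.04 and 0.08. None of the 4 peripheral stalk subunits was called at 60 or 120 mg/kg.

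The promoters of Atp5if1 and Atp5f1e are shown because these genes moved in opposite directions after both chemicals. Neither holds any of the 5 motifs in the 250 bases before the start, which says only that those letters are not in this window. Atp5if1 lies at chr5:150026678-150026927 on the minus strand and Atp5f1e at chr3:183680173-183680422 on the minus strand, and both are shown 5' to 3' in the direction of transcription, from RefSeq and the assembly GRCr8.
Atp5if1: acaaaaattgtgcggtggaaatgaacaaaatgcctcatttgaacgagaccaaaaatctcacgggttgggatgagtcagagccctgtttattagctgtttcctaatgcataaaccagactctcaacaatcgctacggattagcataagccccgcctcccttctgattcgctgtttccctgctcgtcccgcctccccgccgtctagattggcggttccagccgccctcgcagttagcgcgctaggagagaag
Atp5f1e: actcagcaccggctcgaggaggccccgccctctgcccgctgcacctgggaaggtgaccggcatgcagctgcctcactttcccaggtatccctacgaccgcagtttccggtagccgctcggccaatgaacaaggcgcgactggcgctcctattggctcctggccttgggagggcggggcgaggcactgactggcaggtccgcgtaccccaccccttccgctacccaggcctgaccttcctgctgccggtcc

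The called genes of the 2 chemicals overlapped in part at 120 mg/kg. Each chemical has its own vehicle group, and 8 genes were called after both, 47.1% of each list, all 8 in the same direction. They were Atp5if1, which rose, and Ndufv3, Atp5f1e, Atp5mg, Atp5me, Ndufa1, Ndufa7 and Ndufb11, which fell. Of these, Atp5if1, Ndufv3, Atp5f1e and Atp5mg held their call in every fit that left out 1 array for both chemicals, and Atp5me, Ndufa1, Ndufa7 and Ndufb11 lost it in at least 1 fit of a chemical. Over all probe sets 9.8% were called at 120 mg/kg of DMPT and 10.7% at 120 mg/kg of p-toluidine. How many of all probe sets were called after both was not counted. The 47.1% and the shared direction therefore stand without a background share. Atp5if1, Ndufv3 and Atp5f1e were called at both 60 and 120 mg/kg of both chemicals. The Atp5f1e calls at 60 mg/kg were lost without the narrow arrays after DMPT and in 6 of 10 fits after p-toluidine. Groups that did not overlap their vehicle group were seen for 27 genes at 120 mg/kg of DMPT, 21 of them lower, against 8.55% of all probe sets, and for 16 at 120 mg/kg of p-toluidine, 11 of them lower, against 8.29%.

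The difference between the responses to DMPT and to p-toluidine was tested at each of the 5 matched doses for the 90 genes, with p-values adjusted over all 31042 probe sets. No gene passed at any dose, where 0% of all probe sets passed at 1, 6, 20 and 60 mg/kg and 0.00644% at 120 mg/kg. At an unadjusted p under 0.05, 2160, 1876, 2280, 1488 and 2059 probe sets passed at the 5 doses in rising order. For Ndufv3 the response to DMPT minus that to p-toluidine at 120 mg/kg was 0.02 log2 (95% interval -0.18 to 0.21), for Atp5f1e 0.04 (-0.11 to 0.19) and for Sdhc -0.01 (-0.18 to 0.16). For Atp5if1 it was -0.25 (-0.53 to 0.04, adjusted p = 0.814). The widest difference was that of the 1-symbol Cox5a probe set, 0.88 (0.38 to 1.38, unadjusted p = 0.000909, adjusted p = 0.282), and Cox4i1 differed by -0.21 (-0.39 to -0.03, adjusted p = 0.651). Cox6c-ps1 had 0.28 (-0.00 to 0.55, adjusted p = 0.754). The intervals, which rest on 5 arrays per group, hold differences up to their bounds, so a p that misses the threshold does not show that the methylated and unmethylated amines act alike.

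The slope over dose ranks used all 30 arrays of a chemical and called more genes than any single dose. After DMPT 31 of 90 slopes passed (34.4%), 26 downward and 5 upward, against 14.9% of all probe sets (8.58% downward and 6.3% upward). After p-toluidine 24 passed (26.7%), 15 downward and 9 upward, against 14.5% (7.05% downward and 7.43% upward). Complex I held 17 of the 26 downward slopes after DMPT (40.5% of its 42 genes) and no upward one. In complex II 5 of 8 slopes passed (62.5%, 3 upward and 2 downward), and in complex V 4 of 16 (25%, 1 upward and 3 downward). After p-toluidine complex I held 9 downward and 3 upward slopes. Without the narrow arrays 21 slopes passed after DMPT, 16 of them downward and 12 in complex I. The upward slopes after DMPT were those of Cox5a, Atp5if1, Sdhc, Sdhd and Sdhaf4. After p-toluidine Cox5a, Atp5if1, Sdhc and Sdhaf4 also had upward slopes, as did Atp5f1c, Atp5po, Ndufs1, Ndufa12 and Ndufaf5. The slopes share arrays with the single doses and are not independent of them.

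Other genes of the same machinery were read from lists by role. Of the 44 further assembly factors of the chain with a probe set, 4 fell and 2 rose at 120 mg/kg of DMPT (13.6%, against 9.8% of all probe sets), and 1 fell and 4 rose at 120 mg/kg of p-toluidine (11.4%, against 10.7%), shares near those of all probe sets. Coa3, an early factor of complex IV, fell after both (log2 change -0.47 ± 0.08 and -0.38 ± 0.06, adjusted p = 0.000101 and 4.36e-05). Acad9, which serves complex I assembly, rose after both (0.34 ± 0.06 and 0.38 ± 0.08, adjusted p = 0.000527 and 0.00214). Bcs1l, which inserts the Rieske protein into complex III, fell after DMPT (-0.35 ± 0.08, adjusted p = 0.00266) and had a log2 change of -0.19 after p-toluidine (adjusted p = 0.172). The others called, named after their values were seen, were Tmem242, a factor of ATP synthase assembly, which rose after both (0.26 and 0.25), Ttc19 and Fmc1, which fell after DMPT (-0.34 and -0.23), and Lrpprc and Tmem126b, which rose after p-toluidine (0.31 and 0.23).

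Proteins of the mitochondrial ribosome, which translates the mitochondrially encoded subunits, made up the longest list, and more of its called genes fell than rose. At 60 mg/kg of DMPT 22 of 73 fell and none rose (30.1%, against 5.2% of all probe sets), at 120 mg/kg 22 fell and 1 rose (31.5%, against 9.8%), and at 120 mg/kg of p-toluidine 10 fell and 1 rose (15.1%, against 10.7%). Without the narrow arrays 6 fell at 60 mg/kg of DMPT and 16 at 120 mg/kg. The median change of the 73 genes was -0.092 at 120 mg/kg of DMPT and -0.063 at 120 mg/kg of p-toluidine. Mrps2, of the small ribosomal subunit, fell after both chemicals (log2 change -0.58 ± 0.07 and -0.55 ± 0.09, adjusted p = 5.87e-07 and 6.06e-05). The gene that rose was Mrpl13 in both cases (0.23 and 0.31). Mrpl38 and Mrpl46, of the large subunit, also fell after both, by 0.48 and 0.24 on the log2 scale after DMPT and by 0.32 and 0.37 after p-toluidine.

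Among 20 electron carriers and enzymes that feed the chain, 3 fell at 120 mg/kg of DMPT (15%, against 9.8% of all probe sets), and 5 fell and 1 rose at 120 mg/kg of p-toluidine (30%, against 10.7%). Prodh, which passes electrons from proline to the chain, fell after both (log2 change -0.31 ± 0.10 and -0.60 ± 0.10, adjusted p = 0.0372 and 9.31e-05). Etfb and Etfdh, which carry electrons from fatty acid oxidation to ubiquinone, also fell after both, by 0.19 and 0.25 on the log2 scale after DMPT and by 0.28 and 0.25 after p-toluidine. Coq10a and Pdss2, which serve ubiquinone, fell after p-toluidine (-0.39 and -0.23). At 120 mg/kg of DMPT only 1 gene of this list was called lower without the narrow arrays and 2 after cyclic loess. Calls among Prodh, Etfb and Etfdh were thus lost in these fits. With the beta-actin difference in the model 3 genes of the list were called lower at 120 mg/kg of p-toluidine. Sqor, which oxidises sulfide, rose after p-toluidine (0.87 ± 0.18, adjusted p = 0.0014) and had a log2 change of 0.28 after DMPT (adjusted p = 0.245). Of 14 genes of the tricarboxylic acid cycle, 1 rose and 1 fell at 120 mg/kg of DMPT (14.3%) and 1 rose and 3 fell at 120 mg/kg of p-toluidine (28.6%). Pdha1, of pyruvate dehydrogenase, rose after DMPT (0.20 ± 0.06, adjusted p = 0.039), and Dlst, of the oxoglutarate dehydrogenase complex, rose after p-toluidine (0.35 ± 0.07, adjusted p = 0.000873). Pdhb, the other chain of the first pyruvate dehydrogenase enzyme, fell after both (-0.18 and -0.21), and the succinyl-CoA ligase genes Sucla2 and Suclg1 fell after p-toluidine (-0.30 and -0.24). All of these p-toluidine falls lost their call with the beta-actin difference in the model. After DMPT the call of Pdha1 was lost in that model, and the call of Pdhb was lost after cyclic loess. Of 15 regulators of mitochondrial biogenesis, 1 rose and 1 fell at 120 mg/kg of DMPT (13.3%) and 1 fell at 120 mg/kg of p-toluidine (6.67%), against the same shares of all probe sets as above. Gabpb1, the partner of GABPA, fell after DMPT (-0.46 ± 0.11, adjusted p = 0.00585), and the coactivator Ppargc1b rose (0.37 ± 0.11, adjusted p = 0.0305). Nrf1 fell after p-toluidine (-0.34 ± 0.11, adjusted p = 0.048). That call was lost after cyclic loess and with the beta-actin difference in the model, where no regulator was called lower. The coactivator Ppargc1a had log2 changes of 0.38 and 0.45 (adjusted p = 0.0905 and 0.113). Etfb, Etfdh, Coq10a, Pdss2, Pdhb, Suclg1, Ppargc1b and Nrf1 were named after their values were seen.

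Markers of the cell types that liver samples can hold moved little as whole lists, with exceptions led by single genes. From vehicle to 120 mg/kg the log2 summed level of 7 hepatocyte markers went from 15.50 to 15.56 to 15.47 to 15.52 after DMPT and from 15.31 to 15.38 to 15.27 to 15.29 after p-toluidine. Of the 7, Serpina1 was called, lower at 20, 60 and 120 mg/kg of DMPT (log2 change -0.18, -0.18 and -0.23) and at 60 mg/kg of p-toluidine (-0.22). Of the 4 Kupffer cell markers and 5 sinusoidal endothelium markers none was called at 120 mg/kg of either chemical. The summed cholangiocyte level was 5.87 to 6.33 and then 6.93 to 7.22 after DMPT, and 4.95 to 5.55 and then 6.14 to 6.54 after p-toluidine, with 1 of 5 markers called, Epcam (log2 change 1.47 and 1.84). The summed adipocyte level was 5.46 to 6.04 and then 6.53 to 7.18, and 4.82 to 5.27 and then 5.74 to 6.13, with 1 of 6 called, Cidea (1.61 and 1.63), which stressed or fat-laden hepatocytes are also known to express. The summed pancreatic acinar level went from 7.83 to 8.15 to 7.44 to 8.02 after DMPT and from 7.17 to 7.38 to 6.43 to 6.89 after p-toluidine, with 2 of 7 called, Cela1 (-0.48 and -0.84) and Cpb1 (-0.29 and -0.35). Of the 6 stellate cell markers 1 was called after each chemical, Rgs5 (0.43) after DMPT and Col3a1 (-0.40) after p-toluidine. Of the 7 striated muscle markers none was called after DMPT and Tnnc2 rose (0.51) after p-toluidine. The part of these cell types in the changes of the respiratory genes was not tested.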

How the data were processed

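Per the labels, the samples were livers of rats dosed with DMPT or p-toluidine. RMA was named in the submitters' processing notes without a version, and the deposited log2 expression values of 31099 probe sets ran from 0.0507 to 13.9. That they are log2 is inferred from this range, and the array number limits the precision. The 57 control probe sets were left out. Symbols came from the platform annotation, of which 20826 probe sets had 1 symbol, 436 several and 9780 none. Symbols were updated through RefSeq. Each dose was compared with its own vehicle group with limma 3.58.1 in R 4.3.3 (lmFit and eBayes, 30 arrays and 6 group means per chemical), with Benjamini-Hochberg adjustment over 31042 probe sets. Slopes were fitted over the rank of the dose, and differences between chemicals over 60 arrays and 12 group means.

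The genes and lists were chosen with earlier results of these data known. The genes named in full were the 3 with the largest change at 120 mg/kg in each complex and chemical, the 4 complex II subunits, the 3 with the smallest p in each slope, the 3 with the largest difference between chemicals, the tissue isoforms, and the 2 with the largest change in each list and chemical. The p-toluidine doses were taken from the sample labels. The scripts were tested on simulated data. Alternatives were other normalizations, array weights, filters, a replicate block, a beta-actin covariate and leaving out arrays. Replicate numbers did not pair the arrays: 4 of 30 DMPT and 2 of 30 p-toluidine arrays correlated best with their own number.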

Additional observations from a re-analysis of the deposited data

Results flagged for a closer look

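A sample was compared with the other 4 of its group for the genes named by rule and for the complex medians, 208 groups of 5 in all, by the gap between the highest or lowest array and the nearest other, divided by the range (limit 0.71). 12 groups were past the limit, and chance gives about 1 in 20. Among single genes in the DMPT arrays, Atp5f1e was high in vehicle replicate 4 (10.19, the others 10.07 to 10.11) and low in replicate 1 at 120 mg/kg (9.71, the others 9.88 to 9.91). The same replicate 1 was low for Ndufv3 (8.41, the others 8.57 to 8.62). Cox4i1 was low in DMPT vehicle replicate 1 (10.46, the others 10.49 to 10.51), and Cox6b2 in replicate 4 at 120 mg/kg (1.45, the others 1.69 to 1.76). In the p-toluidine vehicle group, Cox7a2l was high in replicate 5 (7.67, the others 7.41 to 7.47).

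Among complex medians, given as log2 value minus the vehicle mean, complex I was high in replicate 5 at 6 mg/kg of DMPT (0.087, the others -0.073 to -0.034) and low in replicate 5 at 120 mg/kg (-0.173, the others -0.105 to -0.083). Complex III was low in replicate 3 at 60 mg/kg of DMPT (-0.093, the others -0.007 to 0.027), and complex V in replicate 1 at 120 mg/kg of DMPT (-0.046, the others -0.004 to 0.009). After p-toluidine, complex II was low in vehicle replicate 5 (-0.103, the others 0.004 to 0.029) and complex IV in replicate 1 at 60 mg/kg (-0.113, the others 0.016 to 0.042). Of these, replicate 3 at 60 mg/kg and replicate 5 at 120 mg/kg of DMPT are among the 5 narrow arrays.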

How the results depend on the processing

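No result changed direction under any alternative while called. Of the values that answer a comparison, 359 stayed within their limits and 40 moved, and a further 484 and 16 when 1 array was left out. Counts of called genes moved as follows, given without the share of all probe sets called in the same fit. At 20 mg/kg of DMPT (3 genes) there were 8 with array weights, 5 after quantile normalization, 6 after cyclic loess, 6 after cyclic loess without the narrow arrays, 6 with bright probe sets only, 5 without the narrow arrays and 6 with the beta-actin covariate. At 60 mg/kg of DMPT (12) there were 5 when only the 10 arrays compared were fitted, 7 after cyclic loess without the narrow arrays, 21 with bright probe sets only and 6 without the narrow arrays. At 120 mg/kg of DMPT (17) these settings gave 10, 9, 26 and 10. For p-toluidine, bright probe sets only gave 2 at 20 mg/kg (0) and 9 at 60 mg/kg (5), fitting only the 10 arrays compared gave 1 at 60 mg/kg and 4 at 120 mg/kg (17), and the subunits only gave 3 and 11. The difference between chemicals at 20 mg/kg had 1 called gene when only the 20 arrays compared were fitted. Leaving out 1 array at a time gave 2 to 4, 7 to 12 and 10 to 15 genes at 20, 60 and 120 mg/kg of DMPT, with 7 at 60 mg/kg without vehicle replicate 2, and 3 to 5 and 9 to 16 at 60 and 120 mg/kg of p-toluidine, with 3 at 60 mg/kg without vehicle replicate 4 or without replicate 1 or 4 at the dose.

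Medians of small complexes moved too. For complex II they were 0.086, 0.124 and 0.112 at 20, 60 and 120 mg/kg of DMPT and 0.130 and 0.036 at 60 and 120 mg/kg of p-toluidine for the subunits only, 0.102 after cyclic loess at 120 mg/kg of DMPT and 0.071 with the beta-actin covariate at 120 mg/kg of p-toluidine. For complex III they were -0.016, -0.027 and 0.041 with that covariate at 20 and 120 mg/kg of DMPT and 60 mg/kg of p-toluidine, and 0.039 after cyclic loess and -0.021 without the narrow arrays at 120 mg/kg of DMPT. Complex I at 120 mg/kg of DMPT had -0.086 after cyclic loess and -0.083 after cyclic loess without the narrow arrays. Complex V at 120 mg/kg of DMPT had 0.016 after cyclic loess and -0.041 for the subunits only, and at 20 mg/kg of p-toluidine 0.031 after quantile normalization and 0.032 with arrays centred on their medians. With 1 array left out in turn, complex III at 20 mg/kg of DMPT ran from -0.001 to 0.048 (without vehicle replicate 4), complex V at 20 mg/kg of p-toluidine from 0.030 (without vehicle replicate 5) to 0.082 (without vehicle replicate 1), and complex II at 120 mg/kg of p-toluidine from -0.073 (without vehicle replicate 5) to -0.000. The cause of these moves was not tested.

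With the replicate number as a block, 2, 12 and 14 genes were called at 20, 60 and 120 mg/kg of DMPT, 5 and 13 at 60 and 120 mg/kg of p-toluidine, and 29 and 23 slopes passed after DMPT and p-toluidine. The numbers do not pair the arrays. Single named genes kept their call or lack of it in 410 comparisons with an alternative, lost it in 23 and gained it in 11, and when 1 array was left out these counts were 690, 41 and 9. The narrow arrays, the choice of probe set and the 5 arrays per group are limits of these results.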

Other observations

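The 7 probe sets annotated to several symbols, at least 1 of them in these families, were outside the rule. Of these, the probe set shared by Ndufa10 and Ndufa10l1 was called, higher at 120 mg/kg of DMPT (log2 change 0.25, adjusted p = 0.0342) and at 60 and 120 mg/kg of p-toluidine (0.26 and 0.28, adjusted p = 0.0256 and 0.00622). Ndufa10 is an accessory subunit of complex I, so this signal runs against the direction of most complex I genes.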
